A study of Physcomitrium patens with 10 samples.

Results

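The names miR902a to miR902g are 7 members of a microRNA (miRNA) family of the moss Physcomitrium patens. They were chosen by name, taking every entry from miR902a to miR902g, and each member was listed with its 5p and its 3p arm. This gave 14 of the 280 mature miRNA names in the data. Small RNA libraries were made from leafy moss shoots, called gametophores, grown on BCD medium and kept hydrated (HD), moderately dehydrated (MDH), severely dehydrated (SDH), partially rehydrated (PRE) or fully rehydrated (FRE). By their titles the 10 libraries form 5 groups of 2. For 7 of the 10 the treatment given in the labels names another state than the title does, so the state of a library rests on its title alone. Each state has 1 deposited value per name, in reads per 1000000 (RPM). From the column names it is taken to combine both libraries of a state, which the titles number 2 and 3. How it was formed is not stated. No result could therefore be repeated without a doubtful library, no value has an error, and no difference below was tested. The read depth behind the values is unknown.

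A plant miRNA is cut from the stem of a folded precursor RNA by a Dicer-like enzyme. The cut leaves a duplex whose strands come from the 5′ side (5p) and the 3′ side (3p) of the hairpin. Usually one strand is loaded into an Argonaute protein, where it guides the cleavage or repression of matching mRNAs, and the other is mostly degraded. Related precursors can give the same mature strand, and sequencing cannot tell such copies apart. The miR902 family is known from this moss, and mosses are plants in which leafy shoots can lose much of their water and resume growth on rewetting.

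The 14 names held far fewer separate measurements than their number. Names of 1 arm were treated as near-identical copies where they differed by at most 5% or at most 0.5 RPM in each of the 5 states, which left 7 separate values. The 3p arms of miR902c, miR902e and miR902g formed the first set, and their values differed by at most 0.1 RPM, with 4 of 5 states identical. The 3p arms of miR902a and miR902b formed another, also at most 0.1 RPM apart and identical in 4 states. The 5p arms of miR902c, miR902d, miR902e, miR902f and miR902g were the largest set, with 5 names at most 0.4 RPM apart. The 5p arms of miR902a and miR902b and the 3p arms of miR902d and miR902f each stood alone. Members miR902e and miR902g had the same value in every state in both arms, so nothing in these data separates them. The names miR902d and miR902f shared their 5p level with the other copies but not their 3p level.

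Most of the reads lay in the 3p set of miR902c, miR902e and miR902g. miR902e-3p was at 1796.5 RPM in HD, 978.9 RPM in MDH, 1437.2 RPM in SDH, 881.9 RPM in PRE and 1674.1 RPM in FRE. Its level was thus highest in hydrated and in fully rehydrated shoots, and lowest at moderate dehydration and at partial rehydration. Among all 280 names it ranked 29 in HD, 42 in both MDH and SDH, 48 in PRE and 27 in FRE. Its 3 copies together made up between 84.2% (SDH) and 91.4% (HD) of the RPM summed over the 14 names. With each set of copies counted once, the set still held between 78.6% (SDH) and 87.8% (HD).

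The 3p arm shared by miR902a and miR902b came next in level and had another order of states. miR902a-3p was at 213.9 RPM in HD, 125.3 RPM in MDH, 318.1 RPM in SDH, 170.5 RPM in PRE and 240.5 RPM in FRE. It peaked in severely dehydrated shoots, where the miR902c, miR902e and miR902g set was below its hydrated level. The level of miR902c-3p was 8.4 times that of miR902a-3p in HD, and the factor was 7.81 (MDH), 4.52 (SDH), 5.17 (PRE) and 6.96 (FRE) afterwards. The gap between the 2 abundant 3p strands was therefore narrowest at severe dehydration.

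The 5p arms were scarce, and 6 of the 7 were lowest in hydrated shoots. miR902c-5p was at 10.2 RPM in HD, 14.8 RPM in MDH, 25.2 RPM in SDH, 19.3 RPM in PRE and 28.1 RPM in FRE. The same order of states, with FRE highest and HD lowest, held for its 4 near-identical copies and for miR902b-5p, but not for miR902a-5p. miR902b-5p was at 14.8, 16.5, 29.6, 22.9 and 32.1 RPM in HD, MDH, SDH, PRE and FRE. It lay above miR902c-5p in every state, by 4.6 RPM in HD, 1.7 RPM in MDH, 4.4 RPM in SDH, 3.6 RPM in PRE and 4.0 RPM in FRE. miR902a-5p moved least of the 14 names, at 8.0, 7.0, 10.9, 8.5 and 9.3 RPM over the same states, with its highest level 1.56 times its lowest. The 5p arms of all members together were 1.26% of the members' RPM in HD, then 2.96% (MDH), 3.26% (SDH), 4.1% (PRE) and 3.2% (FRE).

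By mean level over the states, the rarest strands were the 3p arms of miR902d and miR902f, which in the other members are the abundant ones. In MDH, miR902f-3p was above miR902a-5p, at 8.7 against 7.0 RPM. miR902d-3p was at 2.3 RPM in HD, 4.3 RPM in MDH, 3.3 RPM in SDH, 4.1 RPM in PRE and 3.6 RPM in FRE. miR902f-3p was at 1.4, 8.7, 3.0, 2.2 and 1.1 RPM in the same order, so that 1 state, MDH, stood above the rest. Its highest level was 7.91 times its lowest, the widest range of the 14 names, and it rests on few RPM. Both strands were highest in MDH, but miR902d-3p only by 4.3 against 4.1 RPM in PRE. Of the abundant 3p strands, miR902a-3p was lowest in MDH and miR902c-3p in PRE. Because no replicate values were at hand, it cannot be said which neighbouring states in any of these orders differ beyond the spread.

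**Figure D1:**
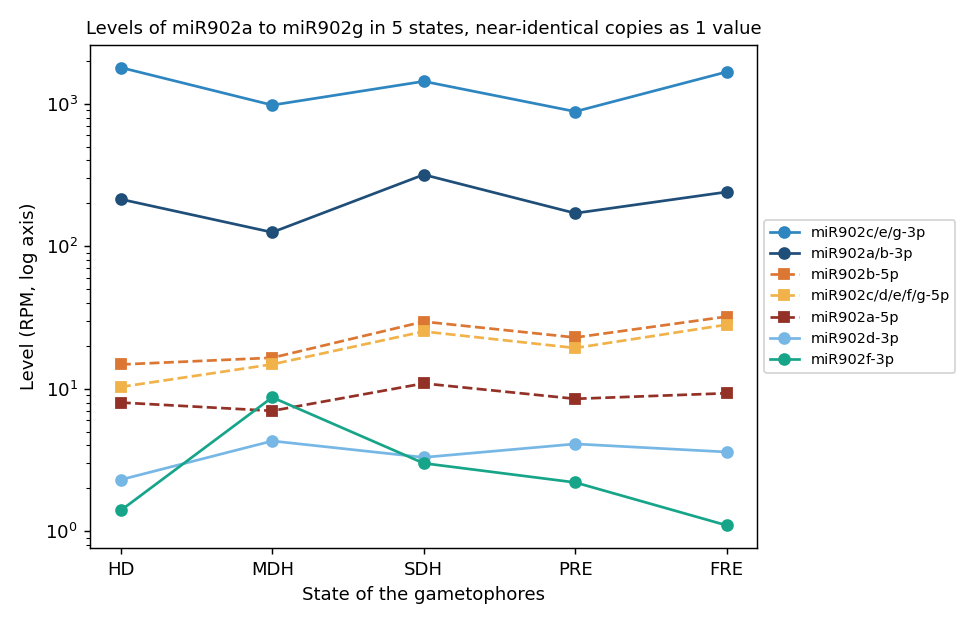
Level in RPM on a log axis (y) of the 7 separate values of miR902a to miR902g in 5 states (x), with 1 deposited value per point and no error available. Circles with solid lines are 3p arms and squares with dashed lines are 5p arms. The 3p set of c, e and g lies between 881.9 and 1796.5 RPM, far above the 5p arms, and the 3p arm of f peaks in MDH at 8.7 RPM.

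Moderately dehydrated shoots were first compared with hydrated ones. With 1 RPM added to each level, a name past a 2-fold ratio was called higher or lower, provided that it had at least 3 RPM in the higher state. Ratios are given as log2 of the levels plus 1 RPM, and folds are plain ratios of RPM. All 14 names met that minimum. Only miR902f-3p was called, at 8.7 RPM in MDH against 1.4 RPM in HD, 6.21-fold higher with a log2 ratio of 2.01. That is 1 of 14 higher, where 11% of all 209 compared names were higher, and 0 of 14 lower, where 24.4% were lower. The abundant arms lay on the lower side without passing 2-fold: miR902c-3p was at 978.9 RPM in MDH against 1796.5 in HD, a log2 ratio of -0.88, and miR902a-3p had -0.77. The median log2 ratio was -0.77 over the 7 3p names and 0.47 over the 7 5p names, beside -0.37 over all compared names. Both medians count copies separately. The 5p median is a value of the 5 near-identical copies, while miR902b-5p had 0.15 and miR902a-5p -0.17. The 5p arms of the 5 copies were at 14.8 to 14.9 RPM in MDH against 10.1 to 10.5 RPM in HD, and miR902a-5p was at 7.0 against 8.0 RPM. Median-of-ratios scaling raised the median log2 ratio of all compared names by 0.35 here, and the log2 ratio of miR902c-3p was then -0.52.

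At severe dehydration the calls came from the 5p side. The 5p arms of miR902c, miR902d, miR902e, miR902f and miR902g were higher in SDH than in HD, which is 5 of 14 names, where 18.6% of all 215 compared names were higher. With copies counted once throughout, 1 of 7 separate values of the members was higher, where 19.9% of 151 values were. Their levels were 25.1 to 25.4 RPM in SDH against 10.1 to 10.5 RPM in HD, and miR902d-5p among them was 2.49-fold higher. miR902b-5p came just short of the call, at 29.6 RPM in SDH against 14.8 in HD, a 2-fold ratio of RPM and a log2 ratio of 0.95 after the 1 RPM was added. No member was lower, where 13.5% of all compared names were. miR902a-3p was at 318.1 RPM in SDH against 213.9 in HD (log2 ratio 0.57), and miR902e-3p at 1437.2 against 1796.5 RPM (-0.32). The abundant 3p strands thus lay on opposite sides of their hydrated level.

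Partial rehydration was the state with calls on the lower side. The 3p arms of miR902c, miR902e and miR902g were at 881.9 RPM in PRE against 1796.5 RPM in HD, 2.04-fold lower with a log2 ratio of -1.03. These were 3 of 13 compared names, where 18.8% of all 213 compared names were lower. As separate values, copies counted once throughout, they were 1 of 6, where 20.1% of 149 values were lower. With median-of-ratios scaling the log2 ratio of miR902c-3p was -0.91, so this call was lost. No member was higher, where 21.6% of all names were. The 5p copies came close, at 19.2 to 19.4 RPM in PRE against 10.1 to 10.5 RPM in HD, with miR902d-5p having the largest log2 ratio of them, 0.86. miR902f-3p was below the minimum of 3 RPM, at 2.2 RPM in PRE against 1.4 in HD, and was not compared.

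In fully rehydrated shoots the calls came again from the scarce 5p strands, and the abundant 3p strands stayed under 2-fold. miR902e-3p was at 1674.1 RPM in FRE against 1796.5 in HD, a log2 ratio of -0.10 that became slightly positive for its copy miR902c-3p, at 0.02, with median-of-ratios scaling. miR902a-3p was at 240.5 against 213.9 RPM, with a log2 ratio of 0.17, and miR902a-5p, the only 5p name not called, at 9.3 against 8.0 RPM, with 0.19. Of 13 compared names 6 were higher, the 5p arms of miR902b to miR902g, where 15.3% of all 209 compared names were higher. With copies counted once throughout, they were 2 of 6 values, where 15.3% of 144 values were higher. miR902f-5p was at 28.2 RPM in FRE against 10.2 in HD, 2.76-fold higher, and miR902b-5p at 32.1 against 14.8 RPM, 2.17-fold higher. No member was lower, where 12% of all names were. The median log2 ratio was 1.35 over the 7 5p names and 0.03 over the 6 compared 3p names, beside -0.10 over all compared names. Both medians count copies separately. The 5p median is a value of the 5 near-identical copies, while miR902b-5p had 1.07 and miR902a-5p 0.19. These 4 comparisons share the HD value.

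The authors' deposited table marks names whose ratio of RPM passes 2-fold with a p-value under 0.05. Its marks rest on the same RPM values and the same 2-fold ratio as the calls above. That nearly the same members were marked is therefore no separate check. In MDH the authors' deposited table marks miR902f-3p as higher, where 9.79% of its names are marked as higher and 25.5% as lower. In SDH it marks the same 5p copies as above and also miR902f-3p, which was at 3.0 RPM in SDH against 1.4 RPM in HD, with 20.3% of its names marked as higher and 13.8% as lower. In PRE the authors' deposited table marks the 3p arms of miR902c, miR902e and miR902g as lower, with 23.1% of its names marked as higher and 18.8% as lower. In FRE it marks the 5p arms of miR902b to miR902g as higher, with 15.5% of its names marked as higher and 11.6% as lower.

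**Figure D2:**
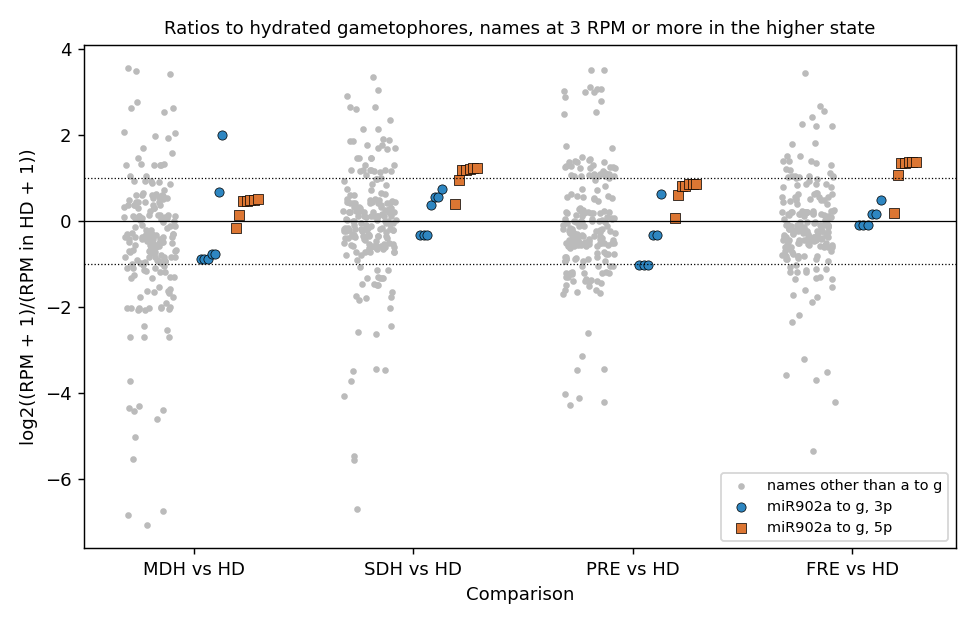
The log2 ratio of RPM + 1 to hydrated gametophores (y) in 4 comparisons (x), for names at 3 RPM or more in the higher state. Grey points are names other than a to g, blue circles the 3p arms and orange squares the 5p arms of miR902a to miR902g, and dotted lines mark 2-fold. The 5p arms pass 2-fold upward in SDH (5 names, all near-identical copies) and FRE (6 names, the same copies and b). In PRE, 3 copies of 1 3p arm pass it downward. As separate values these are 1 of 7 (SDH), 2 of 6 (FRE) and 1 of 6 (PRE). The shares over all values, copies counted once, are 19.9%, 15.3% and 20.1%.

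Partially rehydrated shoots were also set against severely dehydrated ones. No member passed 2-fold in either direction, where 6.16% of all 211 compared names were higher and 3.32% lower. Of the 14 names 13 had a lower level in PRE, with miR902d-3p the exception at 4.1 RPM in PRE against 3.3 in SDH. The 14 names are 7 separate values, and miR902d-3p was the only exception among those too. Over all 211 compared names, 126 were lower in PRE than in SDH. The lowest log2 ratio was that of miR902a-3p, at 170.5 RPM in PRE against 318.1 in SDH (-0.90). miR902c-3p followed with -0.70, and the 5p names lay between -0.37 and -0.32. The median over the members was -0.37, beside -0.18 over all compared names. Both medians count copies separately, and that of the members lies among the values of the 5 near-identical 5p copies.

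The ratio of the 3p to the 5p arm within a member does not depend on how the states were scaled to each other. For miR902c it was 176 in HD, then 66.1 (MDH), 57.0 (SDH), 45.7 (PRE) and 59.6 (FRE), so the 3p strand outweighed its partner most in hydrated shoots. For miR902e and miR902g the 2 arms gave 171 in HD, then 65.7 (MDH), 56.6 (SDH), 45.5 (PRE) and 59.2 (FRE). miR902b was also highest in HD, at 14.5, and at 7.59, 10.7, 7.45 and 7.49 in MDH, SDH, PRE and FRE. miR902a kept a narrower range and had no peak in HD, at 26.7, 17.9, 29.2, 20.1 and 25.9 over the 5 states. miR902a and miR902b share their 3p level, so their ratios differ through their 5p levels.

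The members miR902d and miR902f had the opposite bias, with more 5p than 3p in every state. The 5p level of miR902d was 4.39 times its 3p level in HD, then 3.44 (MDH), 7.61 (SDH), 4.68 (PRE) and 7.75 (FRE). For miR902f the factor was 7.29 in HD, then 1.70 (MDH), 8.37 (SDH), 8.77 (PRE) and 25.6 (FRE), the lowest in MDH and the highest in FRE. The 5p levels in these ratios are the values shared with miR902c, miR902e and miR902g. Reads from those precursors may be part of them, so the ratios of miR902d and miR902f are no measure of their own hairpins alone. The same limit holds for the other members. miR902c, miR902e and miR902g share their levels in both arms, and miR902a and miR902b share their 3p level.

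Changes of the arm ratio were counted among the 22 pairs of arms in which both arms averaged at least 3 RPM over the states. Relative to HD, the log2 ratio of 3p to 5p, with 1 RPM added to each arm, was at least 2-fold lower for miR902c, miR902e and miR902g in all 4 states, and for miR902f in FRE. The change for miR902c was -1.37 (MDH), -1.55 (SDH), -1.88 (PRE) and -1.48 (FRE) on the log2 scale. That gave 3, 3, 3 and 4 of 7 members lower in MDH, SDH, PRE and FRE. Among all 22 pairs 40.9%, 36.4%, 36.4% and 36.4% were lower in those states. The pairs of miR902c, miR902e and miR902g count as 1 pair. With copies counted once throughout, 1 of 5 member pairs was lower in each of MDH, SDH and PRE and 2 in FRE, where 35%, 30%, 30% and 30% of 20 pairs were. These 5 pairs are still not separate. Those of miR902c, miR902d and miR902f share their 5p level, and those of miR902a and miR902b their 3p level. The miR902f call in FRE rests on that shared 5p level and on 3p levels of 1.1 RPM in FRE and 1.4 RPM in HD. With a pseudocount of 10 RPM, 3 rather than 4 members were lower in FRE. Of the 11 pairs outside miR902, 4 were lower in MDH, 3 in each of SDH and PRE, and 2 in FRE. miR902f was higher in MDH by 1.52, the only pair of the 22 past 2-fold in that direction (4.55%). No member was 2-fold higher in SDH, PRE or FRE, where 4.55%, 9.09% and 4.55% of pairs were. In PRE against SDH no member's arm ratio passed 2-fold, where 13.6% of pairs were lower and 13.6% higher.

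**Figure D3:**
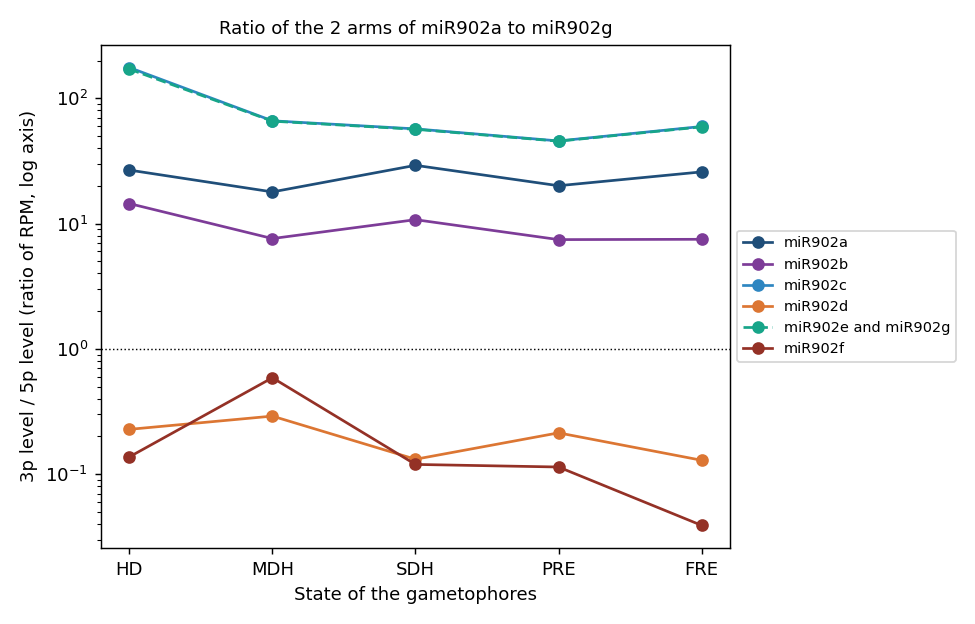
Ratio of the 3p to the 5p level (y, log axis) in 5 states (x) for miR902a to miR902g, with miR902e and miR902g drawn as 1 line because their values are identical and miR902c almost under it. Points above the dotted line have more 3p than 5p. The ratio of miR902c is 176 in HD and 45.7 in PRE, while miR902d and miR902f stay below 1 in every state.

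Summed over the 14 names, the level was 5895 RPM in HD, 3298 RPM in MDH, 5121 RPM in SDH, 3121 RPM in PRE and 5690 RPM in FRE. This is mainly the 3p set of miR902c, miR902e and miR902g counted for each copy, and with copies counted once the sums were 2047, 1156, 1827, 1109 and 1989 RPM. The sum was 1.79-fold lower in MDH than in HD and 1.89-fold lower in PRE than in HD, with log2 ratios of -0.84 and -0.92. In SDH and FRE the log2 ratios to HD were -0.20 and -0.05, and in PRE against SDH the log2 ratio was -0.71. The RPM summed over all 280 names had log2 ratios to HD of -0.72 (MDH), -0.40 (SDH), -1.03 (PRE) and -0.54 (FRE). As a share of that total the members were 0.709% in HD, then 0.655% (MDH), 0.814% (SDH), 0.766% (PRE) and 0.995% (FRE). That share was below its HD value in MDH alone. The names miR535a to miR535d, each at 117172 to 129549 RPM in HD, are a large part of the total of 831487 RPM there. miR535a had log2 ratios to HD of -1.10 (MDH), -0.71 (SDH), -1.40 (PRE) and -0.60 (FRE), so the share depends strongly on that family. With median-of-ratios scaling, in contrast, the log2 ratio of the members' sum to HD was -0.49 (MDH), -0.23 (SDH), -0.81 (PRE) and 0.07 (FRE). Without the 3p set of miR902c, miR902e and miR902g, the log2 ratio of the sum to HD was 0.68 in SDH and -0.09 in PRE.

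The arms went separate ways in these sums. The 5p arms summed to 97.7 RPM in MDH against 74.3 RPM in HD, a ratio of 1.31. In SDH the 5p sum was 166.7 RPM, 2.24 times HD, in PRE it was 128.0 RPM, 1.72 times HD, and in FRE it was 182.2 RPM, 2.45 times HD. With copies counted once the ratios of the 5p sum to HD were 1.16, 1.99, 1.53 and 2.10. The 3p sum was 0.55, 0.851, 0.514 and 0.946 times its level in HD in those states. The 5p sum was therefore above its HD level and the 3p sum below its own in each of the 4 other states. With median-of-ratios scaling this held except in FRE, where the 3p sum was 1.03 times its HD level. As a share of the RPM of all names, in which miR535a to miR535d weigh heavily, the 3p arms were below HD in MDH alone. Their share was 0.7% in HD, then 0.636% (MDH), 0.787% (SDH), 0.735% (PRE) and 0.963% (FRE).

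**Figure D4:**
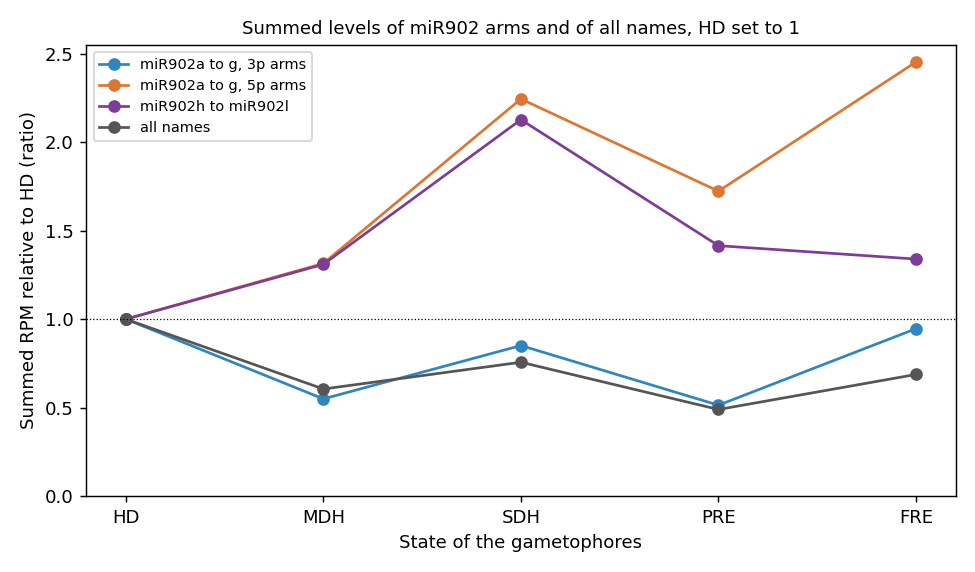
Summed RPM divided by the sum in HD (y) in 5 states (x), for the 3p arms and the 5p arms of miR902a to miR902g, for miR902h to miR902l and for all 280 names. The 5p arms reach 2.24 in SDH and 2.45 in FRE. The 3p arms follow the total of all names in MDH and PRE, at 0.55 and 0.514.

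The rest of the family, miR902h to miR902l, has 10 names and was set beside the members. Its sum was 285.8 RPM in HD, 374.3 RPM in MDH, 607.8 RPM in SDH, 404.4 RPM in PRE and 382.8 RPM in FRE, far below that of miR902a to miR902g. Of its names 4 of 8 compared were higher and 1 lower in MDH, 7 of 9 higher in SDH, 6 of 9 in PRE and 5 of 9 in FRE, and none was lower in those 3 states. Among all compared names 11%, 18.6%, 21.6% and 15.3% were higher in these states, and 24.4%, 13.5%, 18.8% and 12% lower. The counts include names with near-identical levels, miR902h-5p with miR902i-5p and miR902k-5p with miR902l-5p. In PRE against SDH 1 was higher and 1 lower, where 6.16% and 3.32% of all compared names were. The names higher in all 4 states were miR902h-5p, its near copy miR902i-5p and miR902j-5p. miR902h-5p was at 31.7, 27.6, 19.8 and 26.3 RPM in MDH, SDH, PRE and FRE, against 6.9 RPM in HD. Names outside miR902 were also past 2-fold in all 4 states, in either direction. Among them, miR1023a-3p had log2 ratios of 3.58, 3.35, 2.81 and 2.67 in MDH, SDH, PRE and FRE. Those of miR1023c-3p were -4.35, -3.45, -3.15 and -3.21. None of the 14 members a to g was past 2-fold in all 4 states. This is not read as a difference, because the share of all names that were was not counted. The ratio of 3p to 5p was highest in HD for miR902j, at 5.9 there and between 1.99 and 2.37 in the other states, and for miR902k, at 4.66 there and between 1.33 and 2.05 elsewhere. It was highest in SDH for miR902h, at 2.97 against 2.57 in HD, and in PRE for miR902l, at 0.807 against 0.183 in HD. miR902i-3p was too scarce for a ratio, at 1.0 RPM or less in each state. Whether the 2 groups of members differ was not tested.

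Names outside miR902 with the most similar course were found by the root mean square difference of log2(RPM + 1) over the 5 states, each profile centred on its own mean. There were 167 candidates with at least 10 RPM in a state. Closest to the 3p set of miR902c, miR902e and miR902g were the copies miR535a, miR535b and miR535c, with a difference of 0.17, then miR535d with 0.18 and miR1045 with 0.22, against a median of 0.52. miR535a is among the most abundant names and was at 117173 RPM in HD, 54655 RPM in MDH, 71554 RPM in SDH, 44330 RPM in PRE and 77144 RPM in FRE. The sum of all members had the same 3 copies first, at 0.21, then miR1045 and miR533a*. Profiles of other strands were matched after their values were seen. Closest to the 3p arm of miR902a and miR902b was miR1025 with 0.14, at 88.8, 62.8, 146.4, 95.5 and 116.9 RPM. The 5p copies had no match as close, with miR1046-5p first at 0.33, at 23.3, 34.5, 47.1, 35.7 and 33.2 RPM in HD, MDH, SDH, PRE and FRE. All these likenesses rest on 5 values that share 1 scaling per state.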

How the data were processed

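Per the labels' protocols, RNA of 18 to 30 nt was enriched, ligated to adaptors, reverse transcribed and amplified by PCR. The sources used here do not give the aligner, genome build, miRNA reference or the counting of reads that match several copies. They also do not say whether and how replicates were combined. The level tables hold RPM deposited by the authors, in steps of 0.1, with 1 value per state, and the HD values are the same in all 4. Per the file headers, the comparison tables also give an expression score on a total of 10000000 that is the same in every state, the authors' log2 fold change, a p-value whose test is not named, and a mark. The p-values deposited by the authors were not printed, because the true depth is not in those totals. The design foresaw a limma fit for replicate values and no test for 1 pooled value per state, so no test was run.

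Ratios, calls, copy sets, arm ratios and likenesses were computed with Python 3.11.15, numpy 2.4.6 and pandas 2.3.3, and the procedure was tested on simulated data. All 14 member names are described. The members, lists and thresholds were chosen with earlier results of these data known. Alternatives were a pseudocount of 0.1 or 10 RPM, no minimum or 30 RPM, median-of-ratios scaling, copies counted once, shares of the total, and the authors' marks. No sequences were used here.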

Additional observations from a re-analysis of the deposited data

How the results depend on the processing

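No paired analysis was possible because each state has 1 value, taken to combine the replicates, and for the same reason no replicate could be left out. A count was taken as kept within 1.5 times, and a summed level where it moved by under 1.5-fold. Of 103 alternatives 84 left the result in place by that measure and 19 moved it. Many of the 84 were counts of 0 that stayed at 0, among them the members lower in MDH, SDH and FRE. The summed level, which passed 2-fold in no comparison, changed sign under 6 of 20 alternatives. With a pseudocount of 10 RPM the higher members numbered 0 in MDH, 0 in SDH and 0 in FRE against HD. A minimum of 30 RPM left 0, 0 and 1, since few members are that abundant. With copies counted once 1 was higher in SDH, 2 in FRE and 1 lower in PRE. Median-of-ratios scaling left 0 lower in PRE. As shares of the total of all names, the log2 ratio of the summed level to HD was -0.11 (MDH), 0.20 (SDH), 0.11 (PRE) and 0.49 (FRE), and -0.087 for PRE against SDH. Without the 3p arms of miR902c, miR902e and miR902g it was 0.68 for SDH, -0.089 for PRE and 0.40 for FRE against HD, and with median-of-ratios scaling 0.07 for FRE. The sign differs from that as deposited in SDH and FRE without those arms, in SDH, PRE and FRE for the share, and in FRE with that scaling. The share is taken of a total in which miR535a to miR535d weigh heavily. The arm ratio counts, whose alternatives were added after the data were seen, stayed within 1.5 times with a pseudocount of 0.1 or 10 RPM. With 10 RPM the count of lower members in FRE was 3 rather than 4. Counting copies once left 1 member pair with a lower arm ratio in each of MDH, SDH and PRE, and 2 in FRE. The authors' marks, also added after the data were seen, kept the counts of higher and lower members within 1.5 times. They rest on the same values and the same 2-fold ratio, so this is no separate check. With no depth at hand, the precision of the 5p arms and of miR902d-3p and miR902f-3p is unknown.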
